A study of Homo sapiens with 6 samples.

Results

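The genes described here encode proteins of the spliceosomal small nuclear ribonucleoproteins (snRNPs), compared between SND1 knockdown and empty-vector cells. They were taken as array rows with 1 gene symbol beginning with SNRP, SF3A, SF3B, LSM or PRPF, or equal to SNRNP200, EFTUD2, SMN1, SMN2, GEMIN2 or GEMIN5, without pseudogenes. The row with the highest mean over the 6 arrays stood for each gene. This gave 48 genes of 22465 named genes on the array. All 6 samples were cells labelled HepG2, an established liver cancer line, grown with fluorouracil (6 µg/mL) over 48 h. The vector group was 3 arrays of a stable line carrying the empty pLKO vector, and the shSND1 group was 3 arrays of a stable line carrying the hairpin named shSND1-#1. Both groups had received the drug, so the comparison does not give the drug's effect. With 1 hairpin and an empty vector, loss of SND1 and other effects of a hairpin cannot be told apart. Values are log2 signals, normalized by the authors with robust multi-array average (RMA), so a difference of 1 is a doubling.

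Splicing removes introns through the snRNPs U1, U2, U5 and the paired U4/U6, each a small nuclear RNA with its proteins. A ring of Sm proteins is loaded on U1, U2, U4 and U5 RNA by the SMN complex, and a ring of LSM proteins binds U6. U1 and U2 mark the 5′ splice site and the branch point, and the tri-snRNP of U4/U6 and U5 then joins and is remodelled into the active enzyme. SND1, also called Tudor-SN, is a nuclease-like protein with a Tudor domain. It is known to bind U5 snRNP proteins, among them PRPF8, and Sm proteins that carry symmetrically dimethylated arginines. The comparison asks whether transcripts of these partners differ when SND1 is knocked down, and the arrays measure only transcripts.

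The knockdown was seen on the array. The row annotated with SND1 and its intronic transcript SND1-IT1 had 7.44, 7.25 and 7.16 in vector replicates 1 to 3 and 5.82, 5.69 and 5.88 in shSND1 replicates 1 to 3. The groups did not overlap, and 35.6% of the vector signal was left (log2 change -1.49, SE 0.09, limma adjusted p = 0.0166 over all transcript clusters, the array units that each stand for a transcribed locus). An exact two-sided permutation test over the 6 arrays gave p = 0.1, the smallest p it can give. The limma call ended when any 1 array other than vector replicate 3 was left out, with adjusted p-values up to 0.249 and a change of -1.41 or lower. Arrays within a group were uneven: signals of snRNP genes were highest on vector replicate 1 and lowest on shSND1 replicate 1 far more often than on the others, with values given below. Of 12 measured hepatocyte markers, 7 lay below the 25th percentile of signal among named genes on average, ALB and AFP among them, although the label is HepG2. Another 2, APOA2 and APOH, lay above the 75th percentile, and APOA1 and SERPINA1 lay above the median. APOH and SERPINA1 had changes of -0.44 (SE 0.11) and -0.43 (SE 0.07), with limma adjusted p = 0.184 and 0.0831. The changes of APOA2 and APOA1 were 0.08 (SE 0.06) and -0.07 (SE 0.06). No hepatocyte marker passed the test. All 5 epithelial markers lay above the 75th percentile. Their mean log2 signal was 9.93 to 10.03 on vector arrays and 9.60 to 9.67 on shSND1 arrays. Of the 5, CDH1, the adhesion protein E-cadherin, passed the test and fell by 0.95 (SE 0.07, limma adjusted p = 0.00954), whereas EPCAM had a change of -0.0033 (SE 0.06). KRT19, KRT18 and KRT8 had changes of -0.33, -0.23 and -0.19 and did not pass. The part of these differences in the results below was not tested. The 4 leukocyte markers had a mean signal of 2.67 to 2.75 on vector and 2.62 to 2.79 on shSND1 arrays. In such bulk samples, fewer cells of a type and less RNA per cell cannot be told apart.

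No snRNP protein gene passed the test. Of the 48 genes, 0 had a limma adjusted p under 0.05, against 38 of all 22465 named genes (0.169%), and the smallest adjusted p was 0.188, for PRPF8. Only a fit with array weights, which called 14.3% of all named genes, put members past the threshold (4: PRPF8, PRPF6, SF3B4 and PRPF19). At an unadjusted limma p under 0.05, 5 genes were lower and 0 higher in the knockdown, beside 7.34% lower and 4.85% higher of all named genes. All 48 limma 95% intervals lay within 1.5-fold in either direction, with no adjustment for the number of intervals, as did those of 21868 of the 22465 named genes. The interval bound farthest from 0 was -0.44, for the lower end of PRPF8. The individual changes ranged from -0.28 to 0.13, with a median of -0.04 against 0.01 over all named genes. SEs lay between 0.05 and 0.10.

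The 4 U5 protein genes had the lowest median change of the 8 role groups. All 4 were lower in the knockdown, with a median change of -0.16, and 2 of them had an unadjusted p under 0.05. All 4 have signals above the 85th percentile of named genes, and 71.7% of the protein-coding genes at such signals had a negative change. Of the 2973 protein-coding genes above the 85th percentile, 579 reached that p and were lower. Of all protein-coding genes with a signal at or above the median, 12.9% did. The sequences before PRPF8, SNRNP200 and PRPF6 are shown here because these are the U5 genes of the 48 whose groups did not overlap. Each is the 250 bases before the annotated RefSeq start, on GRCh38.p14, 5′ to 3′ on the gene's strand. PRPF8 lies at chr17:1684868-1685117 (minus strand), SNRNP200 at chr2:96305547-96305796 (minus strand) and PRPF6 at chr20:63980882-63981131 (plus strand). Capitals mark matches on either strand to any of 4 motifs. The motif of ETS transcription factors was searched as CCGGAAG. The motif of the general activator SP1 was searched as GGGCGG. The box bound by the factor NF-Y was searched as CCAAT, and the TATA box, which few housekeeping promoters hold, as TATAAA.
PRPF8: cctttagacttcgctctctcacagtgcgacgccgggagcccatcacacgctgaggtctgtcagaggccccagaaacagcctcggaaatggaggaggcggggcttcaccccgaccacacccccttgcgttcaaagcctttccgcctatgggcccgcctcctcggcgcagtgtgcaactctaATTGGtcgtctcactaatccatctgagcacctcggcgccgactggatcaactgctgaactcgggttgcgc
SNRNP200: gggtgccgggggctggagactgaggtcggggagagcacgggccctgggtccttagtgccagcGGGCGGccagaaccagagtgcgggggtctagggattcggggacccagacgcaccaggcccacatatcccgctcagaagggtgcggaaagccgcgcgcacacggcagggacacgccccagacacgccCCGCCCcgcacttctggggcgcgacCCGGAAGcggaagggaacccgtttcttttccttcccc
PRPF6: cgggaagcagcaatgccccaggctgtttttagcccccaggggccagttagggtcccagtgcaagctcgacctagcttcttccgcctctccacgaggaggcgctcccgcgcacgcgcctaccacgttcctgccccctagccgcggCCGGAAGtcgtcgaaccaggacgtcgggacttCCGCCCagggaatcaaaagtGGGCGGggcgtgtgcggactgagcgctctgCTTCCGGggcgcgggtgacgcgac
PRPF8 held 1 CCAAT match, on the other strand, and none of the other motifs. SNRNP200 held 1 ETS and 2 SP1 matches, and PRPF6 held 2 ETS and 2 SP1 matches. EFTUD2, whose sequence is not shown, held 0 matches to any of the 4 motifs.

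PRPF8 encodes the largest protein of the spliceosome, the scaffold around its catalytic RNA. Its signal (transcript cluster TC17000981.hg.1) was 9.33, 9.22 and 9.10 in vector replicates 1 to 3 and 8.87, 8.97 and 8.98 in shSND1 replicates 1 to 3. Every shSND1 array lay below every vector array, and the lowest vector value stood 0.12 above the highest shSND1 value. The means were 9.22 ± 0.11 and 8.94 ± 0.06 (SD, n = 3 each), a 1.21-fold difference (log2 change -0.28, SE 0.07). The limma p was 0.00494 unadjusted and 0.188 adjusted over all named genes. Of all named genes, 2.62% had a smaller p. Among the 2973 protein-coding genes above the 85th percentile of signal, 4.91% had a lower change than PRPF8. Without vector replicate 1 and shSND1 replicate 1 the change was -0.19 (limma adjusted p = 0.555). Both arrays were picked after the values were seen, as those most often highest and lowest among the 48 genes. Leaving them out, here and below, therefore makes changes less negative on average through the choice itself.

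PRPF6 bridges U5 and U4/U6 in the tri-snRNP. Its signal (TC20000531.hg.1) was 7.08, 6.997 and 6.94 on the vector arrays and 6.76, 6.83 and 6.87 on the shSND1 arrays. The groups did not overlap, and the change was -0.18 (SE 0.06, limma unadjusted p = 0.0164, adjusted p = 0.276). SNRNP200, the helicase that unwinds U4 from U6, had 8.21, 8.12 and 8.04 in vector and 7.95, 8.002 and 8.03 in shSND1 cells (TC02002106.hg.1). Here too the groups did not overlap, but they were separated by only 0.01, and the change was -0.13 (SE 0.06, limma adjusted p = 0.457). EFTUD2, the GTPase that governs remodelling of the tri-snRNP, had 8.23, 8.16 and 8.06 in vector and 8.01, 8.11 and 8.09 in shSND1 cells (TC17001586.hg.1). Its groups overlapped, since shSND1 replicates 2 and 3 lay above vector replicate 3, and the change was -0.08 (SE 0.06, limma adjusted p = 0.658). Without vector replicate 1 and shSND1 replicate 1 the changes of PRPF6, SNRNP200 and EFTUD2 were -0.12, -0.06 and -0.01.

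**Figure D1:**
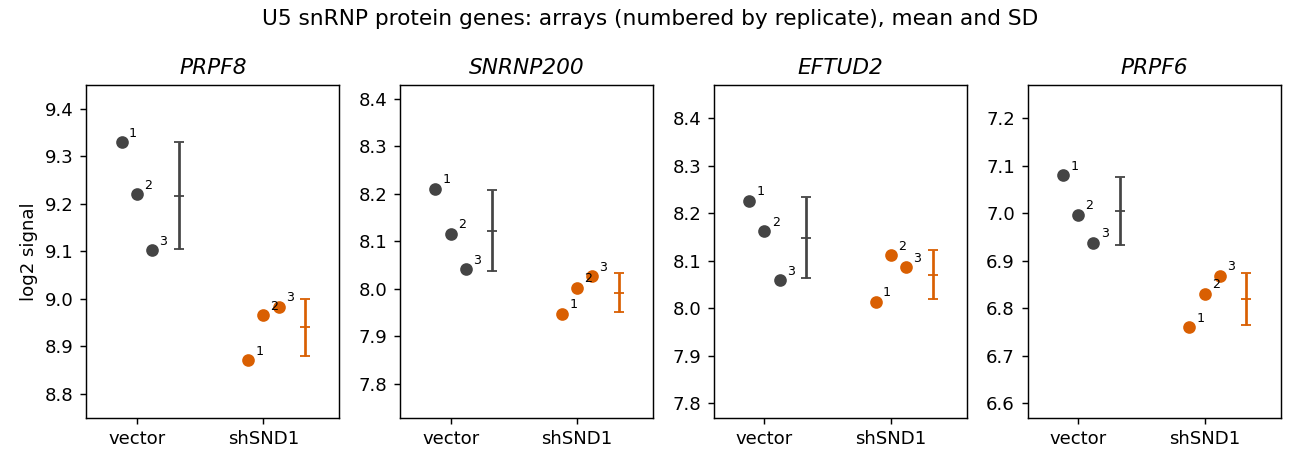
Log2 signal of the 4 U5 protein genes on each array, with vector arrays in grey, shSND1 arrays in orange, replicate numbers beside the points, and bars for the mean and SD of 3 arrays. The axes differ in position and share one length of 0.7 log2 units. PRPF8, SNRNP200 and PRPF6 have shSND1 points below all vector points, and EFTUD2 does not.

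The U5 particle has further proteins whose symbols the rule does not take, and 4 of them were measured. DDX23, the U5 helicase that prepares the tri-snRNP for activation, had 7.86, 7.78 and 7.62 in vector and 7.43, 7.55 and 7.50 in shSND1 cells. Its groups did not overlap, with a change of -0.26 (SE 0.07, limma unadjusted p = 0.00761, adjusted p = 0.21). CD2BP2, a U5 protein that leaves before the tri-snRNP forms, had 6.38, 6.30 and 6.24 against 6.14, 6.11 and 6.16. The groups were again apart, and the change was -0.17 (SE 0.06, limma unadjusted p = 0.0163, adjusted p = 0.276). The WD-repeat protein gene SNRNP40 and TXNL4A, a thioredoxin-like U5 protein, had changes of -0.04 (SE 0.06) and -0.04 (SE 0.06) with overlapping groups. Together the 8 U5 protein genes had a median change of -0.15, 8 of 8 negative, and 5 of 8 had groups that did not overlap. They were put together after their values were seen. Among the protein-coding genes above the 85th percentile of signal, 28.1% had shSND1 arrays all below the vector arrays, beside the 71.7% with a negative change. CD2BP2 and SNRNP40 had lower signals than that, at percentiles 78.2 and 64.2. For protein-coding genes with a signal at or above the median, the same shares were 20.6% and 62%.

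The 11 genes of the U2 snRNP and its SF3a and SF3b complexes had a median change of -0.06, with 9 negative and 2 positive. In 5 of the 11 the groups did not overlap, all lower in the knockdown. All 11 had signals above the median of named genes. Of protein-coding genes at or above that median, 62% had a negative change and 20.6% lay apart and lower. Above the 85th percentile of signal these shares were 71.7% and 28.1%. SF3b and SF3a hold U2 at the branch point. SF3B4, an RNA-binding SF3b subunit, had 6.15, 6.11 and 6.03 in vector and 5.79, 5.91 and 5.97 in shSND1 cells. The groups did not overlap, and the change was -0.20 (SE 0.07, limma unadjusted p = 0.0156, adjusted p = 0.271). SF3A1, a subunit of SF3a, had 7.68, 7.59 and 7.55 against 7.37, 7.47 and 7.48. Its groups were also apart, with a change of -0.17 (SE 0.06, limma unadjusted p = 0.0241, adjusted p = 0.322). SF3B3, a large scaffold subunit of SF3b, had 8.88, 8.82 and 8.72 against 8.59, 8.69 and 8.72. Vector replicate 3 and shSND1 replicate 3 were within 0.01 of each other, and the change was -0.14 (SE 0.06, limma adjusted p = 0.439). Without vector replicate 1 and shSND1 replicate 1 the changes of SF3B4, SF3A1 and SF3B3 were -0.13, -0.10 and -0.07.

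The other U2 genes had smaller or less regular differences. SF3B2 (-0.13, SE 0.06) and SF3A2 (-0.09, SE 0.05) also had groups that did not overlap. SF3B1, the subunit that clamps the branch helix, had a positive change of 0.07 (SE 0.06), as had SF3B6 (0.02, SE 0.08), which touches the branch adenosine and which the platform lists under its older symbol SF3B14. SNRPA1 and SNRPB2, the pair that binds a U2 stem-loop, had -0.04 and -0.06. SF3A3 had -0.01. SF3B5, a small SF3b subunit, had the largest SE of all 48 genes (0.10), because shSND1 replicate 1 stood at 6.43 and replicate 2 at 6.01, on either side of all 3 vector arrays.

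Among the 7 measured genes of the Sm ring, 5 changes were positive and 2 negative, with a median of 0.03. SNRPB, SNRPD1 and SNRPD3 encode the Sm proteins whose arginine-glycine tails are symmetrically dimethylated and bound by Tudor domains, and they went different ways. SNRPB had 6.34, 6.15 and 6.09 in vector and 5.97, 6.03 and 6.09 in shSND1 cells. The highest shSND1 array lay just above the lowest vector array, and the change was -0.16 (SE 0.08, limma adjusted p = 0.454). It was -0.09 without vector replicate 1 and -0.06 without both replicates 1. SNRPD3 had 7.10, 7.08 and 6.98 against 7.11, 7.33 and 7.11. All shSND1 values were above the vector values, by 0.01 at the nearest point, and the change of 0.13 (SE 0.08, limma adjusted p = 0.546) was the most positive of the 48. Without shSND1 replicate 2, the highest array, it was 0.06. SNRPD1 had 6.93, 7.03 and 6.88 against 6.88, 7.21 and 7.08. Its groups overlapped, and the change was 0.11 (SE 0.09, limma adjusted p = 0.658). This value moved to 0.04 without shSND1 replicate 2, to 0.20 without shSND1 replicate 1 and to 0.19 without both replicates 1.

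SNRPD2, an Sm protein without such a tail, had 7.16, 7.05 and 7.28 in vector and 7.17, 7.19 and 7.19 in shSND1 cells. Its vector arrays enclosed the shSND1 arrays, and the change was 0.02 (SE 0.07). SNRPE, SNRPF and SNRPG, which complete the ring, had changes of 0.03, -0.03 and 0.03. SNRPN, the close relative of SNRPB from the imprinted chromosome 15 locus, lay only on a row shared with other transcripts of that locus, with signals of 2.09 to 2.15 on all 6 arrays. The enzymes that methylate Sm tails were measured outside the 48 genes. The methyltransferase gene PRMT5 had a change of -0.07 (SE 0.06), its partner WDR77 0.13 (SE 0.07) and the Sm-binding chaperone CLNS1A 0.04 (SE 0.06), and none passed (limma adjusted p = 0.704, 0.545 and 0.806).

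The 4 U1 genes had 2 negative and 2 positive changes. SNRPA, which binds a U1 stem-loop, had 8.42, 8.30 and 8.17 in vector and 8.17, 8.23 and 8.15 in shSND1 cells. The groups overlapped, and vector replicate 1 stood above the rest (change -0.12, SE 0.07, limma adjusted p = 0.574). The change was -0.06 without vector replicate 1 and -0.18 without vector replicate 3. SNRPC, which stabilises pairing with the 5′ splice site, had a change of 0.01 (SE 0.06). The U1-associated factor genes PRPF39 and PRPF40B had 0.11 (SE 0.07) and -0.04 (SE 0.07). The dimmer second row of PRPF40B gave -0.09.

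Genes of U4/U6, of the tri-snRNP and of later steps had a median change of 0.00, with 4 positive and 3 negative of 7. PRPF19, the ubiquitin ligase that acts with its complex during activation, had 7.94, 7.83 and 7.66 in vector and 7.52, 7.68 and 7.56 in shSND1 cells. Only shSND1 replicate 2 reached into the vector range, and the change was -0.22 (SE 0.08, limma unadjusted p = 0.0297, adjusted p = 0.344). Without vector replicate 1 and shSND1 replicate 1 it was -0.12. PRPF38A, which joins the tri-snRNP before activation, had 7.81, 7.75 and 7.71 against 7.74, 7.88 and 7.85. The groups overlapped, with a change of 0.07 (SE 0.06, adjusted p from limma = 0.672), which was 0.04 without shSND1 replicate 2 and 0.11 without shSND1 replicate 1. The U4/U6 protein genes PRPF3, PRPF4 and PRPF31 had -0.09, 0.03 and 0.01, the second-step factor gene PRPF18 had -0.05 and PRPF38B had 0.00.

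The U6 LSM ring was split, with 4 changes negative and 3 positive. LSM2 had 5.81, 5.74 and 5.71 in vector and 5.59, 5.64 and 5.67 in shSND1 cells. Its groups did not overlap, and the change was -0.12 (SE 0.06, limma adjusted p = 0.462). Of its 6 rows, 5 held the same values and the sixth gave -0.10. LSM4 had 8.09, 7.998 and 7.96 against 7.90, 7.97 and 7.87. Only shSND1 replicate 2 reached the vector range, with a change of -0.10 (SE 0.06, limma adjusted p = 0.543). Without both replicates 1, LSM2 and LSM4 each had -0.06. LSM3 and LSM7 had -0.05 and -0.04, and LSM5, LSM6 and LSM8 had 0.08, 0.03 and 0.03.

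LSM proteins outside the U6 ring serve other RNAs, and 5 of the 6 measured had negative changes. All 6 had signals above the median of named genes, and 62% of protein-coding genes at or above that median had a negative change. LSM14B, of cytoplasmic granules that hold silenced mRNA, had 5.83, 5.74 and 5.65 in vector and 5.61, 5.63 and 5.63 in shSND1 cells. The groups did not overlap, although vector replicate 3 was within 0.02 of the highest shSND1 array, and the change was -0.11 (SE 0.06, limma adjusted p = 0.514), or -0.07 without vector replicate 1. Its relative LSM14A had -0.06. LSM12 had 9.01, 8.95 and 8.88 against 8.87, 8.997 and 8.95, with overlapping groups and a change of -0.01 (SE 0.06). LSM1, of the ring that promotes mRNA decay, had -0.06. LSM10 and LSM11, of the U7 particle that trims histone mRNA, had -0.05 and 0.08.

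For snRNP assembly, GEMIN5, which recognises snRNAs for the SMN complex, had 7.19, 7.20 and 7.02 in vector and 7.06, 7.23 and 7.22 in shSND1 cells. The groups overlapped and the change was 0.03 (SE 0.08). GEMIN2, which holds the Sm subunits before they close on RNA, had 0.01 (SE 0.07). SMN1 and SMN2 are near-identical copies whose 2 rows name both genes, so neither belongs to the 48. Those rows had changes of 0.05 and 0.02. GEMIN7, a further SMN complex gene outside the rule, had 5.96, 5.59 and 5.62 against 5.35, 5.36 and 5.47. Its groups did not overlap, vector replicate 1 stood apart, and the change was -0.33 (SE 0.10, limma unadjusted p = 0.012, adjusted p = 0.247). It was -0.21 without vector replicate 1 and -0.19 without both replicates 1. GEMIN7 is given because of its small p and had the lowest change of the 8 measured SMN complex genes other than SMN. Of these 8, 5 changes were positive and 3 negative, with a median of 0.0032.

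**Figure D2:**
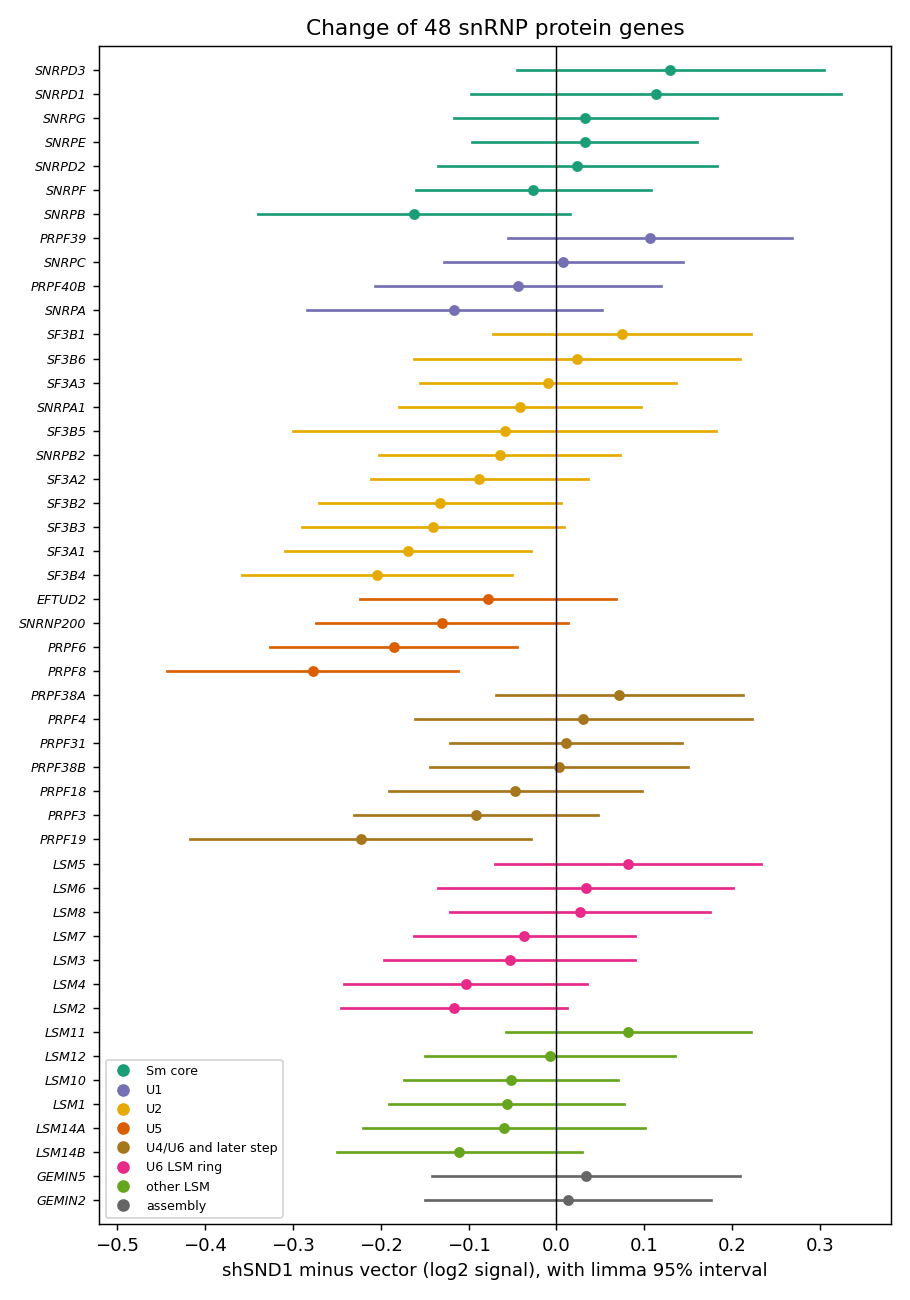
Change of each of the 48 genes (shSND1 minus vector, log2 signal) as a point with its limma 95% interval as a line, ordered by role group (colours) and by change. PRPF8, PRPF6, SF3B4, SF3A1 and PRPF19 have intervals wholly below 0, none lies wholly above, and every interval is inside 1.5-fold.

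Among 60 measured genes of other spliceosome proteins and snRNP assembly factors, 0 had a limma adjusted p under 0.05. At an unadjusted limma p under 0.05, 8 of the 60 were lower and 0 higher, with a median change of -0.05. A signal above the median of named genes was found for 58 of the 60, and 12.9% of the protein-coding genes at such signals were lower at that level. Besides DDX23, CD2BP2 and GEMIN7, the lowest p-values belonged to XAB2, SYF2 and PDCD7. XAB2 and SYF2, both in complexes that act around the catalytic core, had changes of -0.19 (SE 0.06) and -0.20 (SE 0.07). PDCD7, of the minor spliceosome's U11/U12 particle, had -0.19 (SE 0.07). Limma adjusted p-values of these 3 genes were 0.245, 0.33 and 0.334, and in each the shSND1 arrays lay below the vector arrays. Without both replicates 1 the changes of XAB2, SYF2 and PDCD7 were -0.19, -0.10 and -0.17.

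The 48 genes were close to other well-detected genes in how often they were lower. Of them, 29 had a negative change, beside 47.1% of all named genes and 62% of the 9916 protein-coding genes with a signal at or above the median of all named genes. Groups did not overlap in 11 of the 48 (10 lower and 1 higher), beside 24.2% of those protein-coding genes and 17.9% of all named genes. Counted by direction, 20.6% of those protein-coding genes lay apart and lower, as did 11.6% of all named genes, and 6.33% of all named genes lay apart and higher. Of the same protein-coding genes, 12.9% were lower and 2.02% higher at an unadjusted limma p under 0.05, and their median change was -0.03. This comparison group was chosen after the values were seen, because 43 of the 48 genes have a signal above that median.

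**Figure D3:**
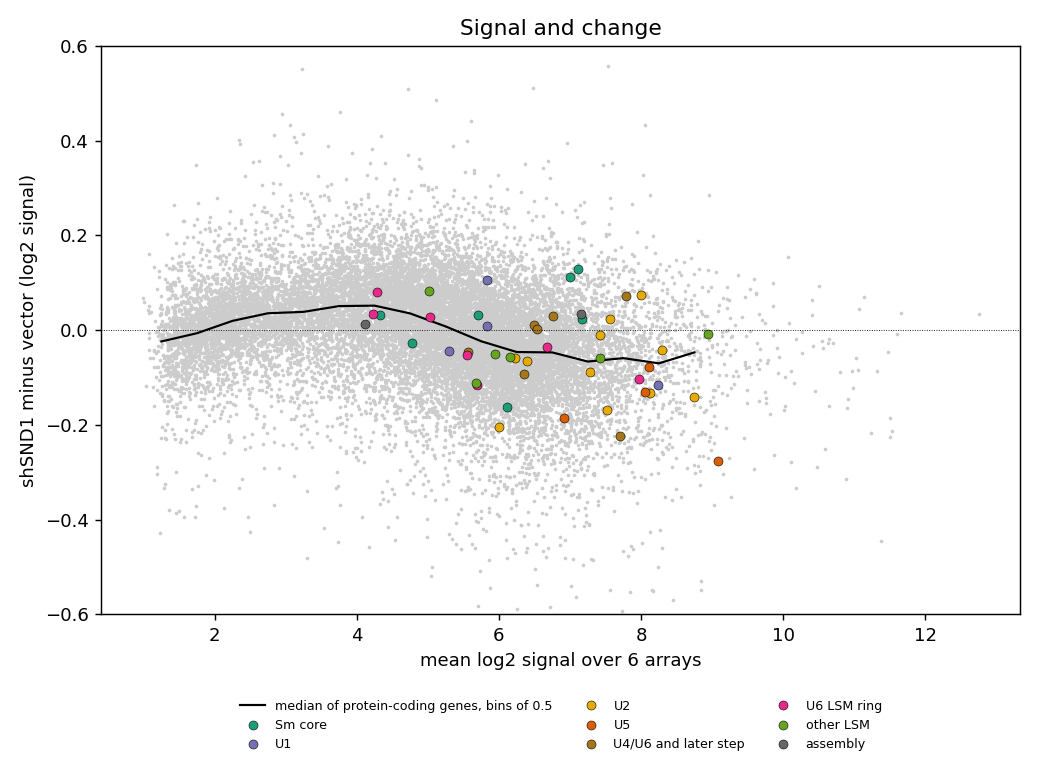
Change (shSND1 minus vector, log2 signal) against the mean log2 signal over 6 arrays for 17176 protein-coding genes (grey; 11 more lie beyond the vertical limits) and the 48 genes (colours by role). The black line, the median of protein-coding genes in steps of 0.5, lies above 0 at signals near 4 and below 0 above 6, and the coloured points lie on both sides of it.

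The arrays of a group did not contribute evenly. Vector replicate 1 gave the highest of the 6 values for 26 of the 48 genes (54.2%), and shSND1 replicate 1 gave the lowest for 26 (54.2%). For the 9916 protein-coding genes those shares were 44.8% and 33.1%. Averaged over the 48 genes, signals deviated from each gene's mean by 0.07, 0.03 and -0.04 on vector replicates 1 to 3 and by -0.06, 0.01 and -0.01 on shSND1 replicates 1 to 3. Without vector replicate 1 and shSND1 replicate 1, the median change of the 48 genes was 0.01, 0 passed the threshold and 1, PRPF8, had an unadjusted limma p under 0.05. Both arrays were picked because of the deviations above, so a less negative average change followed from the choice. Without vector replicate 3, 11 genes were lower at that level, and without shSND1 replicate 1, vector replicate 1 or vector replicate 2, 3 each, with 1 higher without shSND1 replicate 1.

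**Figure D4:**
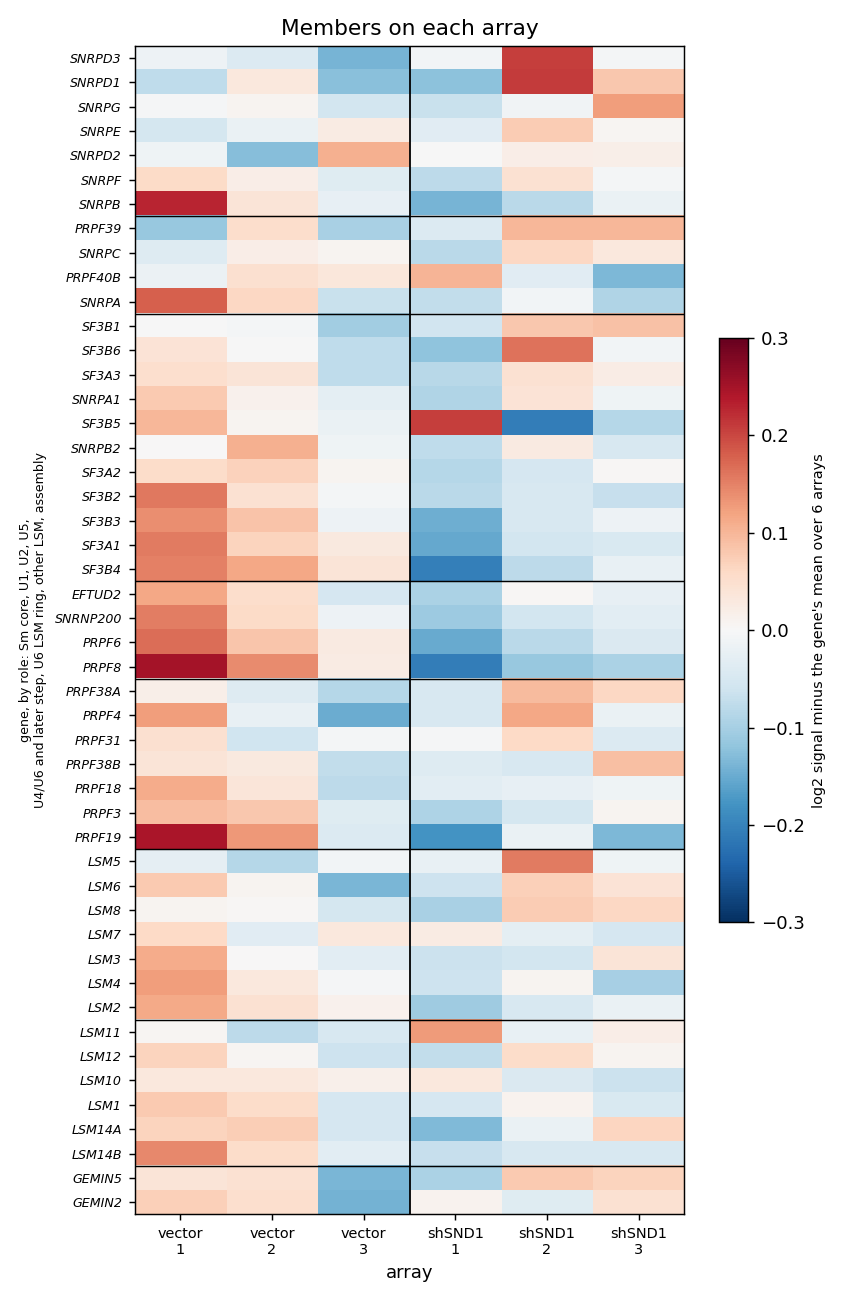
Log2 signal of each gene on each array minus its mean over the 6 arrays (red higher, blue lower), with genes ordered by role group, divided by black lines, and by change. The column of vector replicate 1 is mostly red and that of shSND1 replicate 1 mostly blue. The U5 block is mostly red to the left and mostly blue to the right. On vector replicate 3, SNRNP200 and EFTUD2 lie below their means, and on shSND1 replicate 2, EFTUD2 lies just above its mean.

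In the sequences before the genes, the ETS letters CCGGAAG were frequent. Of the 48 genes, 41 were matched in the RefSeq promoter table, and 17 of these (41.5%) held the letters within 250 bases before the start, beside 12% of 13933 protein-coding genes on the array. SP1 letters were in 56.1% against 57.5%, CCAAT in 41.5% against 34.6% and TATAAA in 2.4% against 8.8%. The 13933 genes were not selected by signal, whereas 43 of the 48 genes have a signal above the median of named genes. Whether the ETS share differs from that of genes with like signal was not tested. The 17 genes with ETS letters, among them SNRPB, SF3B4, SF3A1, SNRNP200 and PRPF6, had a median change of -0.05, and the 24 without them, among them PRPF8, had -0.03. A match describes letters and not a bound site.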

How the data were processed

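RNA from 6 samples, 3 per group, was measured on Affymetrix arrays. The deposited values are log2 signals that the authors made with RMA, per the submitters' processing notes. The sources used here name neither its software nor its settings. The table has 70523 features, of which 67528 are transcript clusters. The platform annotation gave 1 symbol to 23781 clusters, several to 1543 and none in the table used to 42204. Brightest rows gave 22465 named genes. Of the symbols in the rule and the role lists, PRPF4B had no named row in the table used, and SNRPN, SMN1, SMN2, LSMEM1 and LSMEM2 lay only on rows with several symbols. The pseudogenes SNRPD2P2 and SNRPEP4 were left out.

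Groups and replicate numbers came from the titles. Named genes were fitted together with lmFit and eBayes of limma 3.58.1 (R 4.3.3) on group alone, and p-values were adjusted over all of them by Benjamini-Hochberg, with 0.05 as the threshold. The SND1 row, which names 2 symbols, was fitted with all clusters. Whether replicates were separate cultures is not in the labels, so the spread that p-values rest on may be technical. The number of arrays limits the precision. Members, role lists and tests were chosen with earlier results of these data known. Array values are given for the U5 genes, SNRPB, SNRPD1, SNRPD3, genes with an unadjusted p under 0.05 and groups apart, and each role group's brightest and most changed gene. PRPF19 is such a most changed gene. Of the other spliceosome genes, the 6 with the smallest p were named; SNRNP40, TXNL4A, PRMT5, WDR77 and CLNS1A were named after their values were seen. Alternatives are given in the closing section. The fit was run on simulated data, and the outcome is not given here and adds no support to the results. Promoters were searched in Python 3.11.15, and figures were drawn with matplotlib 3.10.9.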

Additional observations from a re-analysis of the deposited data

How the results depend on the processing

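Across 17 alternatives (replicate block, other filters, normalizations, variance models, row choices and sets of genes tested, and left-out arrays), 0 of the 48 genes passed in all but one. With array weights, 4 genes passed (PRPF8, PRPF6, SF3B4 and PRPF19, limma adjusted p = 0.013, 0.0288, 0.0232 and 0.0499), as did 6 of the other spliceosome genes. That fit called 14.3% of all named genes, its weights ran from 0.449 to 7.77, and their estimation stopped before it converged. The median change of the 48 genes was -0.08 to 0.01, the upper end without vector replicate 1 and shSND1 replicate 1 together (0.0087), an alternative chosen after seeing the data. With arrays centred on their medians, the median change of the 48 genes was -0.08 and that of all named genes -0.03. Genes lower at an unadjusted p under 0.05 numbered 1 to 13.

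Of 19 genes given by array, 16 kept their sign throughout. LSM12 turned to 0.0209 with array weights and 0.0597 without vector replicate 1 and shSND1 replicate 1 together, and lay between -0.0409 and 0.0276 with single arrays left out. SNRPD2 turned to -0.0096 with centred arrays and lay between -0.0345 and 0.0826 with single arrays left out, and GEMIN5 between -0.0262 and 0.0891. PRPF8 stayed between -0.33 and -0.19.

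The SND1 row kept its size and missed the threshold with the replicate block (-1.49, limma adjusted p = 0.142), the floor at the 30th percentile (-1.49, 0.178), and without vector replicate 1 and shSND1 replicate 1 together (-1.42, 0.438). Leaving out single arrays gave -1.55 to -1.41, and only without vector replicate 3 did it pass. The labels do not say whether replicate numbers pair the samples. Deviations of same-numbered arrays correlated at -0.304, 0.002 and -0.393, and those of differently numbered arrays at -0.189 to 0.437. Deviations from the mean of only 3 arrays depend on each other, so these correlations cannot decide whether samples were paired. With the block, 0 of the 48 genes passed, and 1 of all named genes against 38.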
